A study of Mus musculus with 2 samples.

Results

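The replication-dependent histone genes encode the linker histone H1 and the core histones H2A, H2B, H3 and H4. They were taken as every gene whose symbol starts with Hist1h, Hist2h, Hist3h or Hist4h, and 47 of the 70 such genes in the gene table had a named probe, among 20655 genes named on the array. These were 6 H1, 14 H2A, 11 H2B, 7 H3 and 9 H4 genes. RAW264.7, a macrophage line from an Abelson leukaemia virus-induced tumour of a BALB/c male, was cultured for 24 h with vehicle or with IR-61, a lipophilic near-infrared cyanine dye that enters mitochondria. The dose of 10 μM is given only in the study's text. RNA of 1 culture per condition was read on 1 single-colour Agilent array each, so no test between conditions was possible. The line is transformed and divides without a stimulus, unlike a primary macrophage.

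Most histone protein is made during S phase, when new DNA has to be wrapped. Core histones form the octamer around which DNA winds, a linker H1 molecule binds where DNA enters and leaves it, and each protein is encoded by many intronless genes lying in clusters. Their mRNAs end in a stem-loop in place of a poly(A) tail, although some of the genes also give tailed transcripts. Labelling protocols that prime from poly(A) read the tailed part best. How much of each signal came from tailed RNA was not measured, and fewer cells in S phase and less histone mRNA per cell cannot be told apart in bulk RNA.

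*Hist1h1c*, which encodes a linker histone that is common in somatic cells, was the 1 histone gene of the 44 measured on both arrays that passed a 2-fold limit. Its deposited signal was 49930 with vehicle and 17380 with IR-61. After each array was scaled to its own 75th percentile, the log2 difference, IR-61 minus vehicle, was −2.01, a 4.03-fold lower level. The core histone genes lay between −0.73 and 0.55. No histone gene was higher by 2-fold, against 1.99% of all 16888 measured genes, and 1 (2.27%) was lower, against 1.39%. The median log2 difference was −0.48 for H1 (n = 5 genes), 0.13 for H2A (n = 13), −0.23 for H2B (n = 11), −0.05 for H3 (n = 6) and −0.14 for H4 (n = 9), and 0.10 over all measured genes. Without scaling between the arrays every difference was 0.49 higher, so that genes between −0.49 and 0 changed sign, the all-gene median was 0.59, and the 5 family medians lay between 0.0035 and 0.62.

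The 6 H1 genes lie in the large histone cluster on chromosome 13, and all had a probe. Their promoters are shown because the single fall past 2-fold among histone genes measured on both arrays lay in this family. *Hist1h1c* (current symbol H1f2) can so be read against its relatives. Each line gives the 150 bases before the annotated start in RefSeq, build GRCm38.p6, 5′ to 3′ along the gene. Capitals mark the CCAAT box (CCAAT), the TATA box (TATAAA) and the H1 box (AAACACA), on either strand.
Hist1h1a: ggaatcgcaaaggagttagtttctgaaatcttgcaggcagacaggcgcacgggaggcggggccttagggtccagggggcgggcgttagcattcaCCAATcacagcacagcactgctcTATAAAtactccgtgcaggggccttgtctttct
Hist1h1b: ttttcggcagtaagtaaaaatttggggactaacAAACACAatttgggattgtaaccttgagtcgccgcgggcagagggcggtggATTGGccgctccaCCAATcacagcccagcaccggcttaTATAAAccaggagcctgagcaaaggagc
Hist1h1c: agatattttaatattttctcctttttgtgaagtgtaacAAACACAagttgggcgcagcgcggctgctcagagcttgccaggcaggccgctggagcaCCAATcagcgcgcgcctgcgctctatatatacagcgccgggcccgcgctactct
Hist1h1d: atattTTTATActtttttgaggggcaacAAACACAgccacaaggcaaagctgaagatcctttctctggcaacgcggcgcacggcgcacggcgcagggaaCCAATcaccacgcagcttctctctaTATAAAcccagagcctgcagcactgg
Hist1h1e: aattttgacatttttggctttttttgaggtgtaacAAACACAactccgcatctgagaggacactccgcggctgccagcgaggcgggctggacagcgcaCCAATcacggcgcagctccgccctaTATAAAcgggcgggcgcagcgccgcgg
Hist1h1t: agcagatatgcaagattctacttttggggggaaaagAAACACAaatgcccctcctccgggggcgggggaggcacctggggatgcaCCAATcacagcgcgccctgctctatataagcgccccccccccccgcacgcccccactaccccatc

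The *Hist1h1c* stretch is chr13:23738657-23738806 on the plus strand. Its H1 box starts 112 bases before the start site and its CCAAT box 54 bases before it. The letters TATAAA are not in this window, nor in that of *Hist1h1t*, which also holds the H1 and CCAAT boxes. Only these exact letters were searched for, so the similar tatatata in *Hist1h1c* and tatataa in *Hist1h1t* are not marked. The stretches of *Hist1h1d*, chr13:23554882-23555031 on the plus strand, and *Hist1h1e*, chr13:23622559-23622708 on the minus strand, hold the same H1 and CCAAT boxes and also TATAAA. The other stretches are chr13:23763518-23763667 (plus strand, *Hist1h1a*), chr13:21780626-21780775 (minus strand, *Hist1h1b*) and chr13:23695661-23695810 (plus strand, *Hist1h1t*). *Hist1h1a* is the 1 member of the family without AAACACA in its promoter. Of the 5 H1 genes that hold it, *Hist1h1c* had a log2 difference of −2.01, *Hist1h1e* −0.49, *Hist1h1b* −0.48 and *Hist1h1t* −0.03. The last was dim, with a spot SD of 0.50, and *Hist1h1d* had only a bound of −2.61. *Hist1h1a* was at 0.05. Whether the motif bears on these values was not tested.

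Over the whole table of promoters, which reach from 250 bases before to 50 bases after the start, these letters were much rarer than in the histone genes. A promoter was found for 42 of the 47 members (43 promoters in all). CCAAT on either strand was in 86.0% of them, against 37.4% of 32851 promoters of all genes, and in every H1, H2A, H2B and H3 promoter but in 2 of the 8 of H4. TATAAA was in 60.5%, against 13.6%. The octamer ATTTGCAT, known from H2B promoters, was in 6 of 10 H2B and 7 of 14 H2A promoters and in none of the others, against 1.74% of all. AAACACA was in 83.3% of the 6 H1 promoters and 20.9% of the 43, against 7.18%. This last motif was added after the values were seen.

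**Figure D1:**
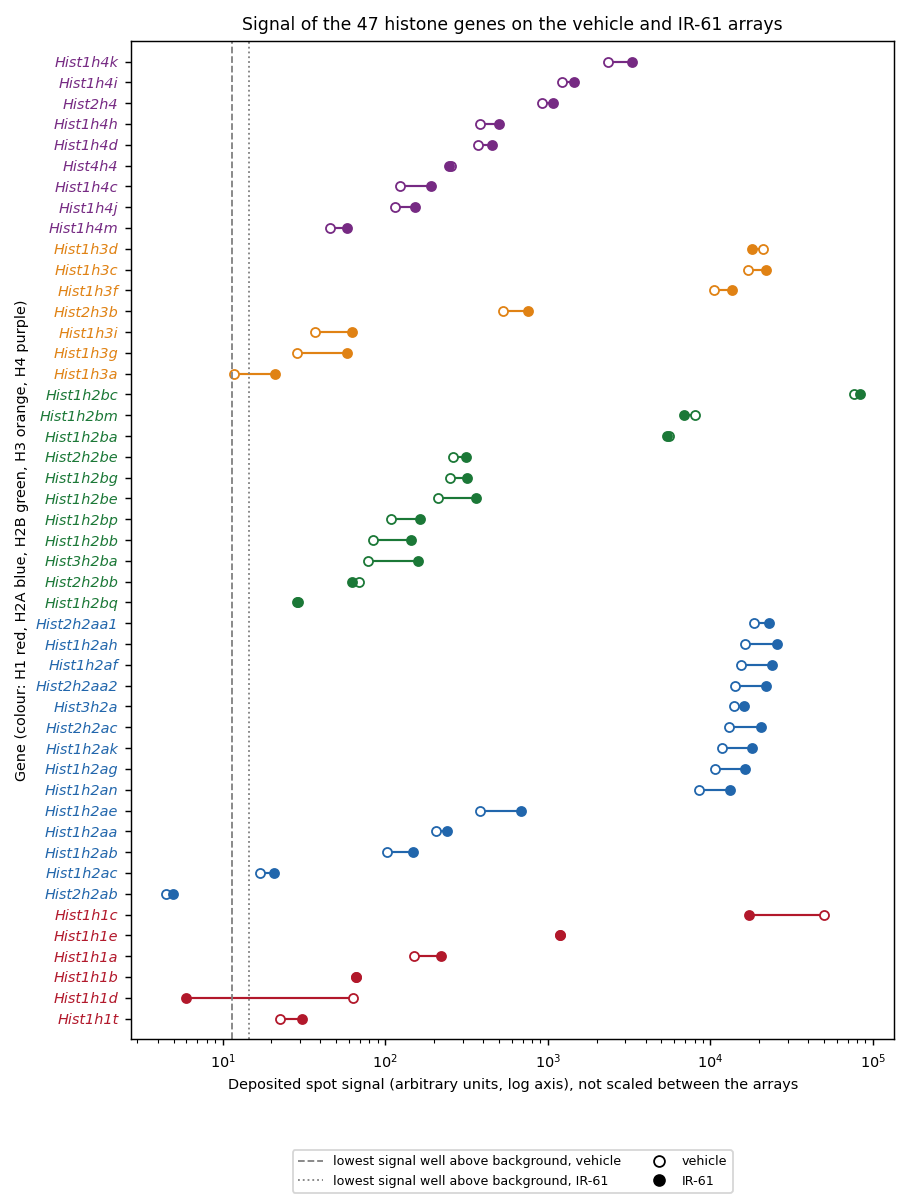
Deposited signal of the 47 histone genes (log axis, arbitrary units, not scaled between the arrays) with vehicle (open circles) and IR-61 (filled circles), 1 spot per probe, with the lowest signal well above background on each array as vertical lines. *Hist1h1c* moves from 49930 to 17380 while most other genes move to the right with the brighter IR-61 array, and levels are to be compared within a gene only.

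The SD across the 5 measured H1 genes was 0.83, and 0.29 without *Hist1h1c*, against 0.19 to 0.43 in the core families. *Hist1h1c* had a scaled log2 level of 5.30 with vehicle and 3.29 with IR-61. Its probe was printed as 1 spot, and the SD expected for such a difference from the spread between repeated spots was 0.094, a measure that leaves out the difference between cultures. Counted from the largest fall, it was number 25 of the 16888 genes measured on both arrays. Without scaling the fall was still −1.52, and over the 13 settings it ran from −2.09 to −1.52. Relative to the median of all genes in the same setting it ran from −2.14 to −1.99.

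*Hist1h1d*, another somatic linker gene (H1f3), was well above background with vehicle only. Its signal was 63.1 with vehicle and 5.99 with IR-61, where the lowest signal well above background was 14.5. Its level was therefore at least 6.11-fold lower, a log2 bound of −2.61, from 1 dim spot per array, and with normexp background correction the bound was −1.26.

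The other H1 genes did not pass the limit. *Hist1h1e* (H1f4), also a somatic linker gene, had signals of 1197 and 1194 with vehicle and IR-61, and *Hist1h1b* (H1f5) had 65.9 and 66.0. Their log2 differences were −0.49 (spot SD 0.094) and −0.48 (spot SD 0.23), and relative to the median of all genes −0.59 and −0.58. *Hist1h1t*, whose product is the testis linker histone, had signals of 22.5 and 30.8 and a difference of −0.03 (spot SD 0.50). *Hist1h1a* (H1f1) had signals of 152 and 220 and a difference of 0.05 (spot SD 0.23). In the order of these clustered genes *Hist1h1c* stands between *Hist1h4c* and *Hist1h3c*, whose differences were 0.14 and −0.11, so both neighbours lay within 2-fold. Without *Hist1h1c* the H1 median was −0.26 (n = 4). Relative to all genes the H1 median ran from −0.60 to −0.35 over the 13 settings.

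**Figure D2:**
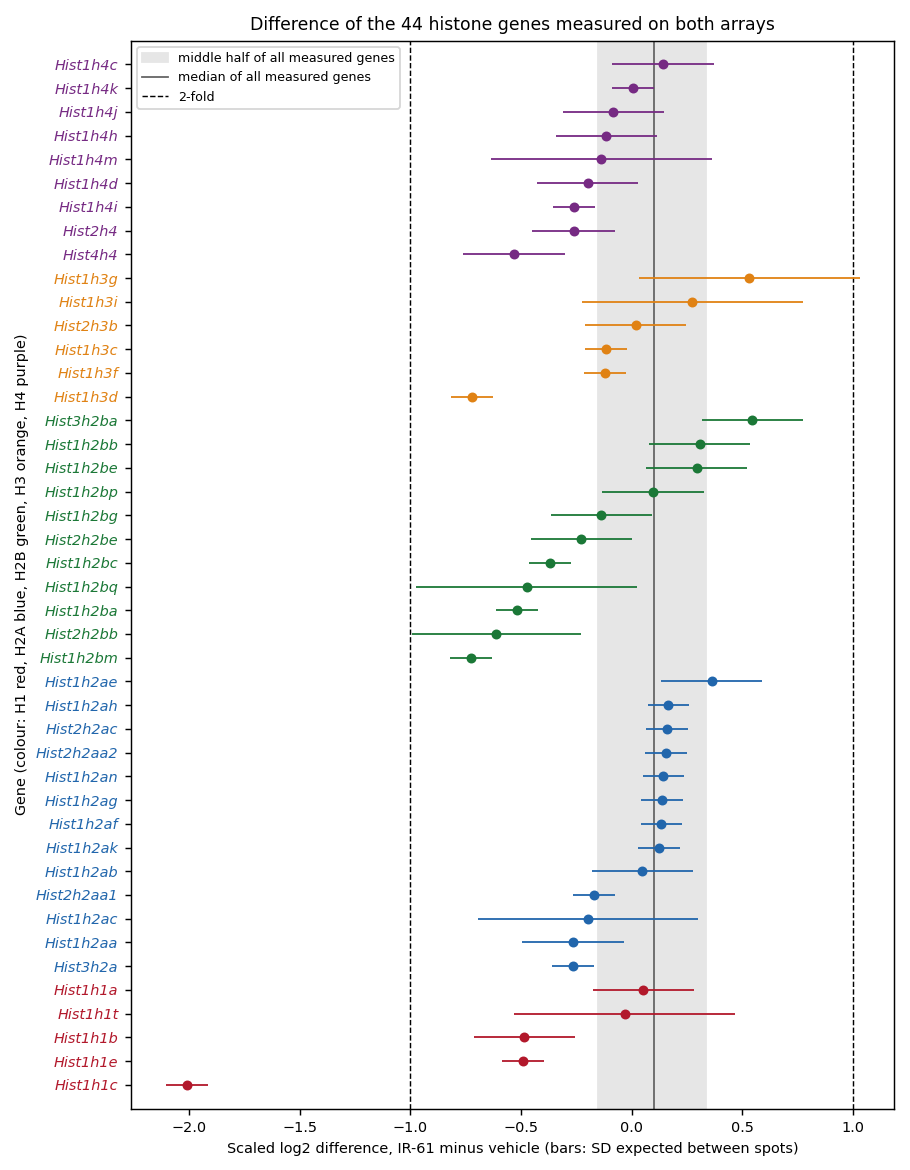
Scaled log2 difference, IR-61 minus vehicle, of the 44 histone genes measured on both arrays, ordered within family, with the SD expected between spots as bars. *Hist1h1c* at −2.01 stands left of the dashed 2-fold line, and every other gene lies between the dashed lines.

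The H2A genes, whose products pair with H2B at the outside of the octamer, ranged from −0.27 to 0.36. Of 9 H2A genes with a signal of at least 8000 on both arrays, 7 had a difference between 0.12 and 0.17, each within 2 times its spot SD of 0.094. These were *Hist1h2af*, *Hist1h2ag*, *Hist1h2ah*, *Hist1h2ak*, *Hist1h2an*, *Hist2h2aa2* and *Hist2h2ac*. The coding sequences of these genes are nearly the same, so that a probe may read transcripts of several of them, which was not tested. *Hist1h2ah*, the highest of them, had signals of 16351 and 25735 with vehicle and IR-61. The other 2 bright genes lay lower, *Hist2h2aa1* at −0.17 (18474 and 23049) and *Hist3h2a*, on chromosome 11, at −0.27 (13885 and 16196). *Hist2h2aa1* and *Hist2h2aa2* are neighbouring copies of each other. Their probes differed in sign only after scaling, at −0.17 and 0.155, each within 2 times its spot SD of 0.094. Before scaling both were brighter with IR-61.

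Among the dimmer H2A genes the values spread further. *Hist1h2ae* was the highest at 0.36 (spot SD 0.23), with signals of 381 and 686. *Hist1h2aa*, expressed mainly in testis, was at −0.27 with signals of 206 and 241. *Hist1h2ab* was at 0.05 and *Hist1h2ac* at −0.20, and *Hist2h2ab* was not well above background on either array (4.47 and 4.95). No H2A gene passed the limit of 1.5-fold in either direction, against 9.79% of all genes higher and 5.68% lower. The H2A median lay from 0.01 to 0.08 above that of all genes in the 13 settings.

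The H2B genes ranged from −0.73 to 0.55. *Hist1h2bm* was the lowest, with signals of 8081 and 6857 and a difference of −0.73 (spot SD 0.094), a 1.65-fold lower level. *Hist2h2bb* followed at −0.61 (spot SD 0.38), with signals of 68.6 and 63.0. At the other end stood *Hist3h2ba* at 0.55 (spot SD 0.23), with signals of 78.0 and 160, and *Hist1h2bb* at 0.31, with 83.7 and 145. Before scaling *Hist1h2bm* was at −0.24 and *Hist2h2bb* at −0.12, the latter within its spot SD of 0.38. *Hist3h2ba* was 2.05-fold brighter on the IR-61 array before scaling and 1.46-fold after it.

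The brightest H2B probe, that of *Hist1h2bc*, read 76289 and 82919 and had a difference of −0.37 (spot SD 0.094). *Hist1h2ba*, which encodes the testis form of H2B, read 5569 and 5453 and had −0.52. The other differences were −0.48 for *Hist1h2bq*, −0.23 for *Hist2h2be*, −0.14 for *Hist1h2bg*, 0.10 for *Hist1h2bp* and 0.29 for *Hist1h2be*. Of the 11 genes 7 (63.6%) lay below 0, against 38.8% of all measured genes, and 4 above. The H2B median was below that of all genes in each of the 13 settings, by −0.36 to −0.22.

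The H3 and H4 proteins form the inner tetramer of the octamer. *Hist1h3d* was the lowest H3 gene, with signals of 21077 and 17930 and a difference of −0.72 (spot SD 0.094), a 1.65-fold lower level. The other bright H3 genes were near each other, *Hist1h3f* at −0.12 (10463 and 13504) and *Hist1h3c* at −0.11 (17032 and 22068). The spread between them and *Hist1h3d* was larger than the spot SD, although H3 genes are also alike enough for a probe to read several of them. *Hist1h3g* at 0.53 (28.7 and 58.2) and *Hist1h3i* at 0.27 (37.0 and 62.8) were dim, with a spot SD of 0.50 each. *Hist2h3b* was at 0.02, and *Hist1h3a* was not well above background with vehicle, with signals of 11.7 and 20.9 and a log2 bound of 0.35 that lies within its spot SD of 0.50. The H3 median was −0.20 to −0.07 relative to all genes over the settings.

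The H4 genes, which all encode nearly the same protein, had no member past 1.5-fold. *Hist4h4*, which stands alone on chromosome 6, was the lowest at −0.53 (spot SD 0.23), with signals of 256 and 248. *Hist2h4* on chromosome 3 was at −0.26, with signals of 919 and 1074, while its dimmer probe was at 0.39 (spot SD 0.50). *Hist1h4c* was the highest at 0.14 (123 and 191), followed by *Hist1h4k* at 0.01 (2339 and 3294). The remaining 5, *Hist1h4d*, *Hist1h4h*, *Hist1h4i*, *Hist1h4j* and *Hist1h4m*, lay between −0.26 and −0.08. Of the 9 genes 7 (77.8%) were below 0, against the 38.8% of all genes, and the H4 median was −0.24 to −0.13 relative to all genes.

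At a limit of 1.5-fold, 4 histone genes were lower (9.09%, against the 5.68% of all genes) and none was higher. They were *Hist1h1c*, *Hist1h2bm*, *Hist1h3d* and *Hist2h2bb*, one each of H1 and H3 and a pair of H2B, and 3 of the 4 had a signal over 8000 with vehicle. Read against the spot SD instead, 10 of the 44 histone genes (22.7%) were lower by over 2 times that SD, against 14.2% of all genes, and 1 (2.27%, *Hist3h2ba*) was higher, against 23.5%. The lower genes came from every family, with 3 of H1, 1 of H2A, 3 of H2B, 1 of H3 and 2 of H4. By cluster, the 34 measured genes of Hist1 had a median of −0.10 and the 7 of Hist2 one of −0.17.

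**Figure D3:**
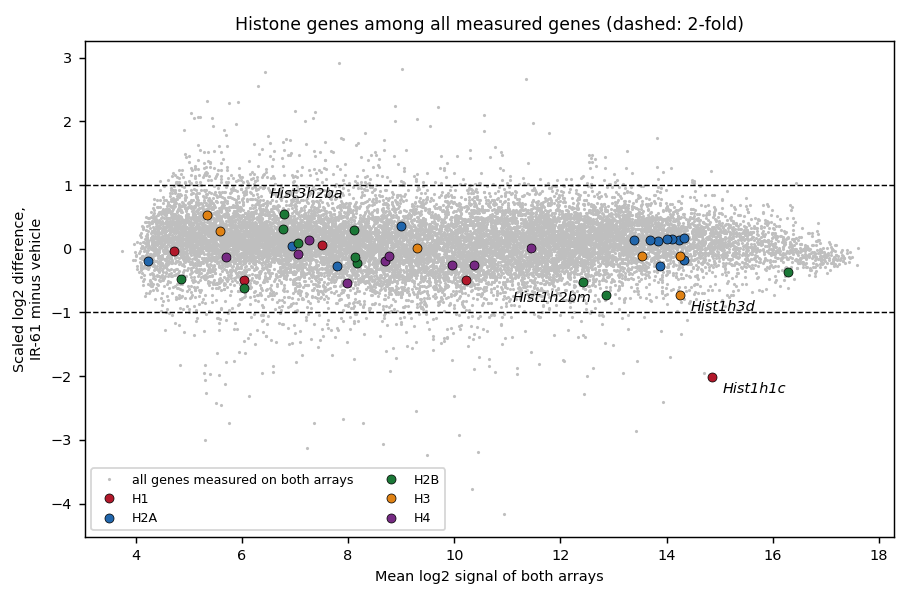
Scaled log2 difference, IR-61 minus vehicle, against the mean log2 signal of both arrays for all 16888 genes measured on both (grey) and the 44 histone genes (coloured by family), with 2-fold as dashed lines. Most histone genes lie inside the cloud of all genes. Counted from the largest fall, *Hist1h1c* at −2.01 is number 25, *Hist1h2bm* number 557 and *Hist1h3d* number 569.

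Genes related to histone supply were read on the same arrays. Of 16 replication-independent histone variants, which are also made outside S phase, 1 (6.25%) fell by over 2-fold, against 1.39% of all measured genes. None passed that limit upward, against 1.99%, and the median was 0.18. The 1 that fell was *H1f0*, a linker variant of non-dividing and differentiating cells, with signals of 95.9 and 50.8 and a log2 difference of −1.40. The highest variant was *H2afy3*, a macroH2A gene, at 0.76. Without scaling *H1f0* was at −0.92 and did not pass the limit.

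Factors that make histone mRNA were within 2-fold in both directions, with a median of −0.04 over 22 genes. Of all measured genes 1.99% were higher and 1.39% lower by 2-fold. *Slbp*, which binds the stem-loop, was at −0.21 (2314 and 2815), while *Npat*, the activator of histone gene transcription, was not well above background with vehicle and at least 1.56-fold higher with IR-61. The extremes were *Gon4l* at −0.79 and the polyadenylation factor gene *Fip1l1* at 0.48. The 20 genes for histone chaperones and modifiers of new histones had a median of −0.06, from *Hat1*, which acetylates new H4, at −0.61 to the chaperone gene *Nap1l1* at 0.64, and none passed 2-fold.

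The S-phase and mitotic lists lay above the all-gene median of 0.10. The 38 S-phase genes had a median of 0.27, with 27 (71.1%) above 0, against 61.2% of all measured genes. Of the 38 genes 1 (2.63%) was higher by 2-fold, against 1.99% of all, the dUTPase gene *Dut* at 1.03. The lowest was *Pola2*, a DNA polymerase alpha subunit, at −0.92. The 21 measured mitotic genes had a median of 0.41, from the spindle factor gene *Tpx2* at −0.84 to the kinase gene *Aurkb* at 0.86, with none past 2-fold. Among 19 cell cycle inhibitors and quiescence genes the median was 0.06, and 1 (5.26%) fell by over 2-fold, against 1.39% of all genes. It was the antiproliferative gene *Btg2* at −1.35 (−0.86 without scaling, within the limit), while *Cdkn2a* was the highest at 0.61. Relative to all genes, the S-phase median stayed between 0.16 and 0.28 in the 13 settings and that of all histone genes between −0.22 and −0.11.

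**Figure D4:**
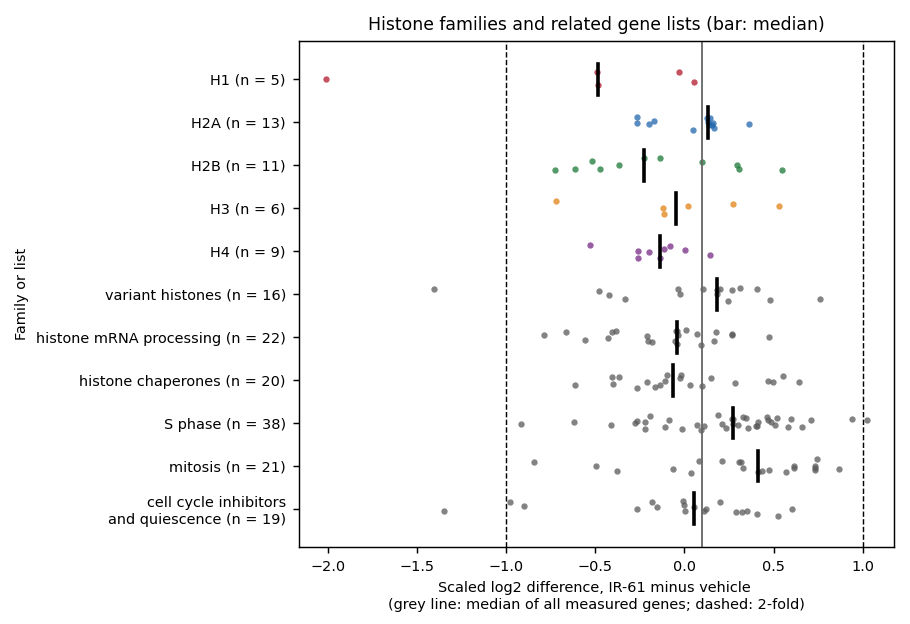
Scaled log2 difference, IR-61 minus vehicle, of each measured gene in the 5 histone families (coloured) and 6 related lists (grey), with the median as a bar, the all-gene median as a grey line and 2-fold as dashed lines. The S-phase and mitotic medians of 0.27 and 0.41 lie right of the grey line, and those of H1, H2B, H3 and H4 left of it.

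The arrays held 39419 probes each, of which 77.6% with vehicle and 81.2% with IR-61 were well above background. The 75th percentile was higher with IR-61 by 0.49 on the log2 scale, no spot was saturated, and the 52 histone probes were printed as 1 spot each. All 11 macrophage markers named were detected on both arrays, with signals of 1002 to 120590 with vehicle and 790 to 149990 with IR-61. Markers of other cells were detected too, with 6 of 6 for fibroblasts (139 to 27148 and 219 to 58670), 5 of 6 for T cells, 5 of 5 for B cells, 4 of 6 for epithelial or endothelial cells and 2 of 4 for adipocytes. Their part in the histone values was not tested.

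**Figure D5:**
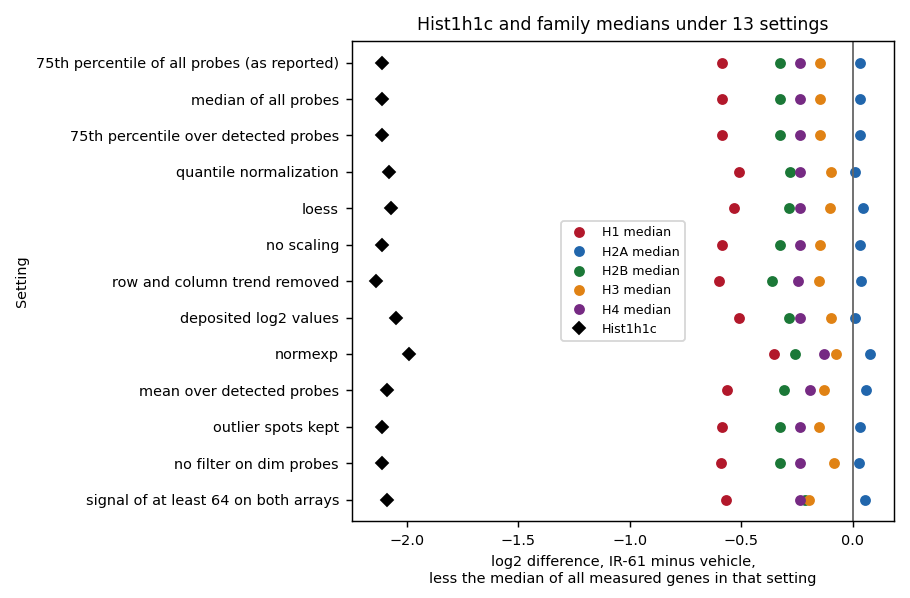
Log2 difference, IR-61 minus vehicle, less the median of all measured genes, of *Hist1h1c* (diamonds) and of the 5 family medians (circles) under each of 13 ways to process the arrays. *Hist1h1c* stays between −2.14 and −1.99, and the H1 median is the lowest of the 5 families in every setting. Settings that only shift a whole array coincide here by construction.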

How the data were processed

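The files hold, per spot, the deposited intensity from Agilent Feature Extraction, background-subtracted and detrended within each array and not scaled between arrays. Version 11.0.0.1 is named in the submitters' processing notes and 11.0.1.1 in the file headers. They also deposited log2 values per probe, whose making is not given in the sources used here, and these served as an alternative. The samples were grouped by their labels.

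Control and outlier spots (124 and 139) were left out, repeated spots were averaged as log2 intensity, and each array was centred on its own 75th percentile. The array gives accessions without gene names, and 27224 of 39419 probes were named through accessions in a RefSeq gene table (GRCm38.p6, used for names and promoters because the array design has another build). A gene took its brightest probe, which for 5 histone genes was chosen from 2. Of 20655 genes, 16888 were well above background on both arrays. Where a probe was dim on 1 array, its dim side was taken as its own signal or the lowest signal well above background there, whichever was higher. Of 399 probes printed 5 or more times, those well above background gave the spread between spots, in 3 ranges of signal (log2 under 6, 6 to 10, over 10). These ranges held 70, 118 and 144 probes with vehicle and 60, 133 and 150 with IR-61. With vehicle the SD was 0.37, 0.18 and 0.070, and with IR-61 it was 0.34, 0.14 and 0.063. The number of arrays limits precision. The steps were tested on simulated data.

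Full signals are given, by rule, for the 2 largest rises and falls of each family, and for members past 2-fold or with such a bound. Other members, the extremes of each list, *Slbp* and *Npat* are named with their difference. Signals of *Hist1h1b*, *Hist2h2aa1*, *Hist2h2ab*, *Hist1h3a*, *H1f0*, *Slbp*, *Npat*, *Hist1h2bc*, *Hist1h2ba* and *Hist1h3c* were added to these after their values were seen. The members, lists and tests were chosen with earlier results of these data known. The alternatives were scaling to the median, to the 75th percentile of detected probes, by quantiles, by loess or not at all, a row and column trend removed, the deposited log2 values, normexp (offset 50), the mean over detected probes, outlier spots kept, other filters on dim probes and a 1.5-fold limit. Normexp used the median signal of each spot, and 4 spots of the IR-61 array with a background above their signal were given the median background. Protein sequences of the members were not analysed here. Normexp came from limma 3.58.1 in R 4.3.3 and loess from statsmodels 0.14.6 in Python 3.11.15, tables were handled with pandas 2.3.3 and numpy 2.4.6, and figures were drawn with matplotlib 3.10.9.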

Additional observations from a re-analysis of the deposited data

How the results depend on the processing

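No paired analysis was possible because vehicle and IR-61 were read on 1 array each, which also leaves no replicate to drop. Without scaling, the median of all genes rose from 0.10 to 0.59, by construction, since the IR-61 array was brighter. The medians were then 0.37 for all histone genes, 0.0035 for H1, 0.62 for H2A, 0.26 for H2B, 0.44 for H3 and 0.35 for H4. Of 44 histone genes 2, *Hist3h2ba* and *Hist1h3g*, were higher by 2-fold or more, against 2156 of all 16888 measured genes. Higher by 2-fold were then also 7 of 38 S-phase and 8 of 21 mitotic genes (1 and 0 with scaling). So were 1 of 16 variant, 2 of 20 chaperone and 2 of 19 inhibitor or quiescence genes (0 each with scaling). None of these lists had a lower gene. Without the filter on dim probes 2 histone genes were lower by 2-fold, as *Hist1h1d* then counts, and a 1.5-fold limit gave 4. The H2A median without the genes with a signal of at least 8000, an alternative added after seeing the data, was −0.075. The other 92 values of the medians and counts moved by less than the expected spot SD or stayed within 1.5 times the count. Over all genes, 336 were higher and 235 lower by 2-fold. These counts were 249 and 295 with the median, 257 and 279 with quantiles, 255 and 279 with loess, 266 and 281 with the deposited log2 values, 2156 and 72 without scaling, 124 and 149 with normexp, 921 and 440 without the dim filter, 182 and 184 at a signal of at least 64 on both arrays, and 1653 and 960 at 1.5-fold. The differences of 10 named histone genes crossed 0 over the settings, with *Hist1h1t* from −0.26 to 0.46, *Hist1h3g* from −0.12 to 1.02, *Hist1h3i* from −0.15 to 0.76, *Hist1h1a* from −0.08 to 0.54, *Hist1h2aa* from −0.35 to 0.22, *Hist1h3f* from −0.21 to 0.37, *Hist1h4c* from −0.07 to 0.63, *Hist1h4k* from −0.08 to 0.49, *Hist2h4* from −0.34 to 0.23 and *Hist3h2a* from −0.35 to 0.22. Those of *Hist1h1t*, *Hist1h2aa*, *Hist1h3f* and *Hist3h2a* were above 0 only without scaling, where every difference is 0.49 higher by construction. Those of *Hist1h3g*, *Hist1h3i* and *Hist1h4c* were below 0 only with normexp. That of *Hist2h4* was above 0 only without scaling and with the mean over detected probes. That mean was 0.07 and takes in its dimmer probe at 0.39. Why *Hist1h1a* and *Hist1h4k* crossed 0 was not tested.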
